A study of Mus musculus with 4 samples.

Results

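Heat shock chaperones are proteins that hold, refold or assemble other proteins. The inducible ones among their genes are switched on by the transcription factor HSF1 when proteins misfold. This happens for example after heat, lack of oxygen or the enzymatic digestion of a tissue into single cells. HSP70 proteins bind exposed stretches of unfolded clients with the help of J-domain partners such as DNAJB1 and exchange factors such as HSPH1. HSP90 proteins finish the folding of kinases and receptors, small heat shock proteins such as HSPB1 keep unfolded clients from clumping, and HSPD1 with HSPE1 forms the folding chamber of mitochondria. Followed here were 10 such genes, of the 28604 gene columns with a symbol: the inducible members Hspa1a, Hspa1b and Dnajb1 (3 genes) and the constitutive members Hsph1, Hspa8, Hsp90aa1, Hsp90ab1, Hspb1, Hspd1 and Hspe1 (7 genes). The split is a working one. Hsph1 also responds to heat and Hsp90aa1 to stress, so the constitutive group is not free of genes that respond. The 10 genes were chosen by name, with earlier results on their levels in these same wells known, so the levels below describe these animals, and the tests are those of fits across all genes.

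The series concerns the kinases MST1 and MST2 (genes Stk4 and Stk3) in the mouse heart, and its title adds an antagonist of a leukotriene B4 receptor and infarction. Hearts of 2 Mst1/2-deficient animals (KO1 and KO2) and 2 wild-type animals (WT1 and WT2), all C57BL/6, were dissociated and spun into a cardiomyocyte (CM) and a non-cardiomyocyte (NCM) fraction. The polyadenylated RNA of single chip wells was then counted as unique molecular identifiers (UMIs). Neither the labels nor the files give age, sex, any injury or drug, the deleted allele or the cells that carry the deletion. Each of the 4 chips held 1 fraction of 1 genotype, so within a fraction genotype and chip cannot be told apart. Every animal was loaded on both chips of its genotype, and the animal is the replicate (n = 2 per genotype).

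Of 4315 wells, 3990 had at least 10000 UMIs and 300 genes and were kept, with 210 to 385 per animal in the CM fraction and 692 to 747 in the NCM fraction. Levels are given in CPM, counts-per-million, the UMIs of a gene scaled by the UMIs outside mitochondrial and haemoglobin genes, whose sum was 13126144 to 93816921 per animal and fraction. KO1 was the shallowest animal in both fractions, with a median of 26755.5 such UMIs per CM well and 24379 per NCM well. Mitochondrial genes took 58.1 and 36.5% of UMIs in KO1 and KO2 NCM wells, against 7.45 and 11.2% in WT1 and WT2, while in KO CM wells they took 47.2 and 36.4%, against 38.1 and 35.7% in WT. Haemoglobin took 4.48 and 12.0% in KO NCM wells and 1.19 and 3.42% in WT NCM wells. Stk4 stood at 45.8 and 37.5 CPM in KO NCM sums against 53.1 and 47.3 in WT, while KO CM sums had 17.9 and 9.31 against 32.3 and 14.2 in WT. Stk3 stood at 29.0 and 26.3 in KO NCM sums against 23.5 and 38.6 in WT, while KO CM sums had 31.2 and 11.9 against 12.7 and 13.8 in WT, so transcripts of both targeted genes were counted in every animal. Without the deleted exons these counts check the labels only in part. Between 60 and 400 barcodes recurred in each pair of chips, which share a set of well barcodes. Clustering without the heat shock genes gave 16 clusters, and 2674 wells received a class name from markers. The markers matched the fractions, since 12 cardiomyocyte genes took 3.37 to 8.43% of UMIs in CM sums and 0.131 to 0.696% in NCM sums.

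Hspa1a and Hspa1b encode the stress-inducible cytosolic HSP70 and lie side by side on chromosome 17, each with 1 exon (mm10, GENCODE M21, minus strand). Hspa1a spans chr17:34969190-34972156 and Hspa1b spans chr17:34956436-34959238, 9951 bases apart. The 250 bases before each start (RefSeq, GRCm38.p6, minus strand, chr17:34972157-34972406 for Hspa1a and chr17:34959239-34959488 for Hspa1b) are shown because both copies differed between the genotypes in the same direction below. Capitals mark the only match to a pair of facing heat shock element units, written GAANNTTC or TTCNNGAA and searched on both strands.
Hspa1a: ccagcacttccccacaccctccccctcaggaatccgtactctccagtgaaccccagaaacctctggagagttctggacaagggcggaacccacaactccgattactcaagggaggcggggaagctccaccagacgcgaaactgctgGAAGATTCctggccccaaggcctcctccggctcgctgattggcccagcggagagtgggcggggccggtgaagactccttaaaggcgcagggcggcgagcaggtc
Hspa1b: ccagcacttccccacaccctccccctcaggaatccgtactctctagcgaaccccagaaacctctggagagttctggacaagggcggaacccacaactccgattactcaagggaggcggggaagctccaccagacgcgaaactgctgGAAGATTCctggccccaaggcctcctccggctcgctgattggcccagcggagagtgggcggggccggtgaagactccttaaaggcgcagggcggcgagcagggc
The windows differ at 3 of 250 bases (98.8% identity), and the match lies at -104 from the RefSeq start in both. Of 32536 RefSeq promoter windows of this length, 12.9% hold such a match, and a match is a string of letters, not a shown binding site. Dnajb1 (chr8:83608193-83612653, plus strand), which encodes the J-domain partner that hands clients to HSP70, has none in its windows. The coding parts of the pair are also nearly alike. Of the 50-base windows of the Hspa1a transcript up to the stop codon, 80.6% recur in Hspa1b, and none recur after it. Reads that lie wholly within a shared stretch cannot be assigned to 1 copy. How the authors' counting treated such reads is not stated in the labels, and the copies are therefore also given as a sum.

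In the NCM fraction both Hspa1 copies were counted more often in KO than in WT animals. These sums mix the level per cell with the share of each cell type, and the shares differed between animals. Endothelial-like wells numbered 233 and 127 in KO1 and KO2 against 57 and 146 in WT1 and WT2. Wells of unnamed cluster 15 numbered 54 and 115 in KO1 and KO2 against 3 and 4 in WT1 and WT2. The part of this make-up in the sums was not tested, and classes are compared singly below. Hspa1a stood at 463 and 218 CPM in KO1 and KO2, against 75.3 and 115 in WT1 and WT2. Hspa1b stood at 654 and 287 in KO1 and KO2, against 101 and 184 in WT1 and WT2. Both KO animals lay above both WT animals for either copy, and KO1 was the highest of the 4. With every well weighted equally, the mean level of Hspa1a was 529 and 226 in KO1 and KO2 against 151 and 184 in WT1 and WT2, and that of Hspa1b was 720.2 and 293 against 174 and 244. The order was kept, but KO2 and WT2 stood closer together than in the sums. Dnajb1 was closer together, at 209 and 166 in KO1 and KO2 against 136 and 155 in WT1 and WT2, again without overlap. The fitted log2 folds, KO over WT, were 1.65 for Hspa1a (SE 0.386, above 93.1% of the genes tested), 1.53 for Hspa1b (SE 0.440, above 92.2%) and 0.19 for Dnajb1 (SE 0.224, above 59.6%). With each well thinned to 5000 UMIs they were 1.02 for Hspa1a (SE 0.351) and 1.24 for Hspa1b (SE 0.379). By edgeR's quasi-likelihood test with Benjamini-Hochberg adjustment none of the unthinned folds passed 0.05 (adjusted p = 0.339, 0.339 and 0.761). That test called 0 of 17216 genes (0%), although 2075 had an unadjusted p below 0.05. With DESeq2, 377 genes were higher and 357 lower, among them Hspa1a (log2 fold 1.64, adjusted p = 0.0120) and Hspa1b (log2 fold 1.52, adjusted p = 0.0435), and edgeR with no filter on low counts called both as well (adjusted p = 0.0111 and 0.0265). The call on the pair in edgeR thus depends on the filter. The DESeq2 fit was also made without edgeR's filter (27914 genes in both), but its adjusted p values follow DESeq2's own default filtering by mean count. A part of the tool alone cannot be read from it.

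The NCM animals also differed in mitochondrial share, as given above, and the part of this in the Hspa1 result was not tested beyond 1 restriction. In NCM wells under 30% mitochondrial UMIs, of which KO1 had 18, KO2 160, WT1 645 and WT2 570, the pair stood at 572 and 560 CPM in KO1 and KO2 against 176 and 292 in WT1 and WT2. The genotypes lay apart there too. The log2 folds were 1.22 for Hspa1a (SE 0.382) and 1.43 for Hspa1b (SE 0.385), both with adjusted p = 0.472, while that of Dnajb1 turned to -0.32. Without KO1 the folds were 1.11 for Hspa1a and 0.93 for Hspa1b. The wells of each animal had been dispensed from 4 source wells, and the pair ranged from 1053 to 1193 in those of KO1 and from 373 to 642 in those of KO2, against 134 to 198 in WT1 and 234 to 401 in WT2. The ranges of KO1 and WT1 lay apart from all others, and those of KO2 and WT2 overlapped.

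In the CM fraction KO1 was the highest animal for the 3 inducible genes, and the genotypes were not apart for Hspa1a and Dnajb1. Hspa1a stood at 256 and 65.0 CPM in KO1 and KO2, against 82.9 and 27.9 in WT1 and WT2, and Hspa1b at 233 and 69.4 in KO1 and KO2, against 68.3 and 33.4. Dnajb1 stood at 190 and 48.5 in KO1 and KO2, against 71.6 and 29.3 in WT1 and WT2. KO2 lay between the WT animals for Hspa1a and Dnajb1 and next to WT1 for Hspa1b. The log2 folds were 1.34 for Hspa1a (SE 0.676), 1.38 for Hspa1b (SE 0.556) and 1.04 for Dnajb1 (SE 0.627), none past the threshold (edgeR, adjusted p = 0.999 each), and without KO1 they were 0.44, 0.64 and 0.14. In CM wells with less than 30% mitochondrial UMIs the pair stood at 474 and 196 CPM in KO1 and KO2 against 130 and 64.2 in WT1 and WT2, without overlap. In this fraction 0 of 14462 genes (0%) passed in edgeR and 498 had an unadjusted p below 0.05, while DESeq2 found 37 higher and 29 lower, no member among them. The genotype difference was not shown to be unequal between the fractions: the CM difference minus the NCM difference was -0.25 for Hspa1a (SE 0.688), -0.16 for Hspa1b (SE 0.614) and 0.81 for Dnajb1 (SE 0.631) on the log2 scale. Without WT1 the values for Hspa1a and Hspa1b turned to 0.74 and 0.69. No gene of 17509 (0%) passed that test in edgeR, 866 were below 0.05 unadjusted, and 115 passed in DESeq2.

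**Figure D1:**
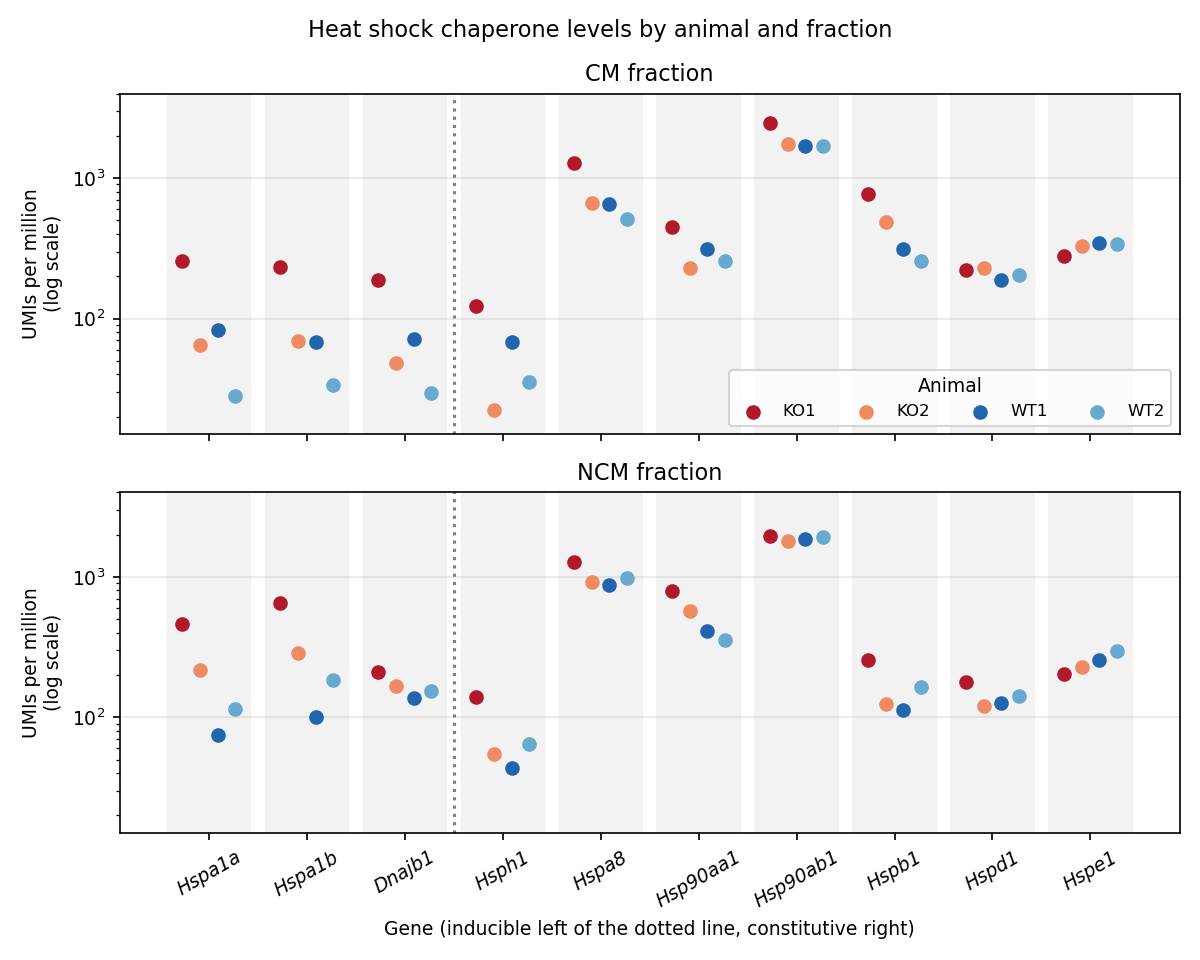
CPM (log axis) of the 10 genes in each of the 4 animals, with the CM fraction above and the NCM fraction below. Points are single animals, KO left of WT, and inducible genes stand left of the dotted line. In the NCM panel both KO points of Hspa1a and Hspa1b lie above both WT points, while Hsp90ab1 lies between 1798 and 1945 in all 4. Heights are not scaled to gene length and are to be read within a gene.

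Set against the constitutive members, the inducible ones were more abundant in KO NCM wells. For every 100 UMIs of the 7 constitutive genes, the 3 inducible genes had 27.7 and 17.6 UMIs in KO1 and KO2, against 8.47 and 11.5 in WT1 and WT2 (22.7 ± 7.15 in KO and 9.99 ± 2.15 in WT, SD, n = 2 each). In the CM fraction the ratio was 12.1 and 4.92 in KO1 and KO2, against 6.27 and 2.75 in WT1 and WT2 (8.52 ± 5.09 in KO and 4.51 ± 2.49 in WT). The genotypes did not overlap in NCM wells and overlapped in CM wells. The sum of inducible members behind the unthinned NCM ratio was 999 ± 463 CPM in KO and 383 ± 100.0 in WT NCM wells. That of constitutive members was 4296 ± 687 in KO and 3813 ± 182 in WT. The mixture within the inducible group also differed, because the Hspa1 pair had 5.36 and 3.04 UMIs per Dnajb1 UMI in KO1 and KO2 NCM wells, against 1.29 and 1.93 in WT1 and WT2. Hspa1b outnumbered Hspa1a in all 4 NCM sums, at 1.41 and 1.32 UMIs per Hspa1a UMI in KO1 and KO2 and 1.34 and 1.60 in WT1 and WT2.

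**Figure D2:**
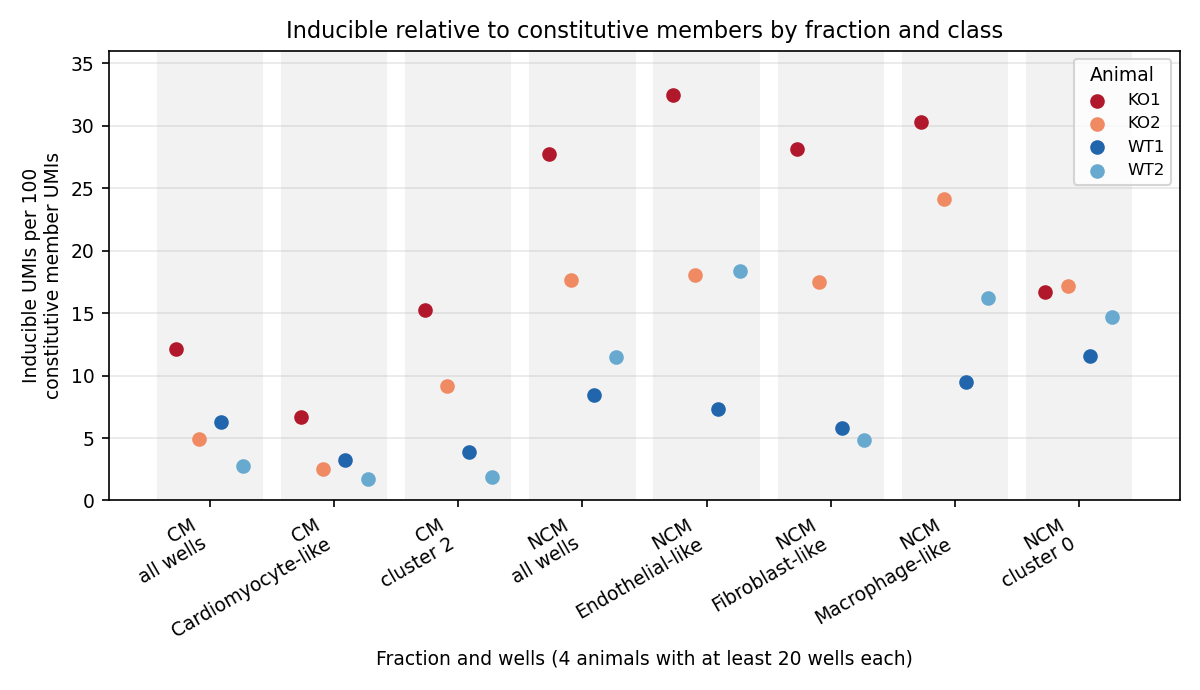
UMIs of the 3 inducible genes per 100 UMIs of the 7 constitutive genes, for all wells of a fraction and for classes or clusters with at least 20 wells in each of the 4 animals. Each point is 1 animal, KO left of WT. KO points lie above WT points in all NCM wells, in fibroblast-like and macrophage-like wells and in clusters 0 and 2, whereas KO2 at 18.1 and WT2 at 18.4 are level in endothelial-like wells.

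Among the constitutive HSP70 and HSP110 genes, Hspa8, the everyday cytosolic HSP70, stood in NCM wells at 1270 and 916 CPM in KO1 and KO2 against 869 and 982 in WT1 and WT2, with overlap (log2 fold 0.07, SE 0.209, and -0.10 without KO1 and -0.05 without WT1). Hsph1, the exchange factor that reloads HSP70, stood at 140 and 54.8 in KO1 and KO2 against 43.9 and 65.1 in WT1 and WT2. Only KO1 stood out, and the log2 fold of 0.64 (SE 0.446) was -0.07 without it. In CM wells Hspa8 stood at 1286 and 665 in KO1 and KO2 against 652 and 508 in WT1 and WT2, without overlap (log2 fold 0.59, SE 0.418). Hsph1 in CM wells stood at 123 and 22.3 in KO1 and KO2 against 68.4 and 35.3 in WT1 and WT2, with KO1 the highest and KO2 the lowest (log2 fold 0.25, SE 0.683, and -1.02 without KO1 and -0.10 without WT2).

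Of the HSP90 isoforms, 1 had both KO animals above both WT animals in NCM wells. Hsp90aa1, the isoform that responds to stress, stood at 789 and 568 CPM in KO1 and KO2 against 414 and 356 in WT1 and WT2, with no overlap. Hsp90ab1, the steady isoform, stood at 1945 and 1798 in KO1 and KO2 against 1864 and 1936 in WT1 and WT2, and the genotypes overlapped. The log2 folds were 0.65 for Hsp90aa1 (SE 0.214, edgeR adjusted p = 0.368) and -0.19 for Hsp90ab1 (SE 0.173, adjusted p = 0.696). In wells under 30% mitochondrial UMIs the fold of Hsp90aa1 was 0.92 and that of Hsp90ab1 turned to 0.03. In all NCM wells, Hsp90ab1 had 2.47 and 3.16 UMIs per Hsp90aa1 UMI in KO1 and KO2, against 4.50 and 5.44 in WT1 and WT2. In CM wells Hsp90aa1 stood at 445 and 231 in KO1 and KO2 against 312 and 257 in WT1 and WT2 (log2 fold 0.09, SE 0.377, and -0.13 without KO1), and Hsp90ab1 at 2474 and 1752 against 1679 and 1697 (log2 fold 0.19, SE 0.445). The CM difference minus the NCM difference was -0.52 for Hsp90aa1 (SE 0.397, edgeR adjusted p = 0.954) and 0.43 for Hsp90ab1 (SE 0.408, adjusted p = 0.964), so the fractions were not shown to differ.

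Hspb1, the small heat shock protein that also binds actin filaments, stood at 775 and 490 CPM in KO1 and KO2 CM wells, against 312 and 259 in WT1 and WT2. Both KO animals lay above both WT animals. The log2 fold was 1.01 (SE 0.376, edgeR adjusted p = 0.999) and stayed at 0.95 without KO1, but it was 0.26 in CM wells under 30% mitochondrial UMIs, of which KO1 had 38, KO2 63, WT1 84 and WT2 121. In NCM wells Hspb1 stood at 255 and 124 in KO1 and KO2 against 112 and 166 in WT1 and WT2, with overlap (log2 fold 0.26, SE 0.364, and -0.24 without KO1, -0.02 without WT1 and -0.48 in wells under 30% mitochondrial UMIs). The CM difference minus the NCM difference was 0.83 (SE 0.484) and did not pass the threshold (edgeR adjusted p = 0.951).

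The mitochondrial pair shares 1 promoter region on chromosome 1, with Hspd1, the chamber (chr1:55077835-55088243, minus strand), and Hspe1, its lid (chr1:55088132-55091307, plus strand), transcribed away from each other. The 250 bases before the Hspe1 start (RefSeq, GRCm38.p6, plus strand, chr1:55087898-55088147) are shown since they hold the only 3-unit heat shock element match seen beside these members, which also lies within a window of Hspd1 on the other strand. Capitals mark the run covered by overlapping matches to GAANNTTCNNGAA or TTCNNGAANNTTC.
Hspe1: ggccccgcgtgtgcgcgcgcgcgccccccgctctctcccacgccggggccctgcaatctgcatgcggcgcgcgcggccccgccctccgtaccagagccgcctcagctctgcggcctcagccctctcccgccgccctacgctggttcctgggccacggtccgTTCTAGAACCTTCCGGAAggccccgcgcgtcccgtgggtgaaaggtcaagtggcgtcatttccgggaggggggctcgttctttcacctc
Such a 3-unit match is held by 0.470% of the 32536 windows. Sequence was found for 7 of the 10 members, of which 6 hold a pair of units and 2 hold 3 units. Neither mitochondrial member followed the order of the animals seen for Hspa1a and Hspa1b. Hspe1 stood at 203 and 228 CPM in KO1 and KO2 NCM wells against 256 and 296 in WT1 and WT2, both KO animals being lower (log2 fold -0.51, SE 0.230, edgeR adjusted p = 0.432), but the fold was 0.40 in wells under 30% mitochondrial UMIs. As a mean of equally weighted wells Hspe1 stood at 202 and 251 in KO1 and KO2 against 257 and 217 in WT1 and WT2, with overlap. Hspd1 stood at 179 and 121 in KO1 and KO2 against 125 and 141 in WT1 and WT2, with overlap (log2 fold -0.00, SE 0.250, and 0.17 with library totals, 0.20 without KO2 and 0.39 below 30% mitochondrial UMIs). Hspe1 in CM wells stood at 279 and 330 in KO1 and KO2 against 343 and 337 in WT1 and WT2 (log2 fold -0.23, SE 0.416, and 0.12 without KO1), and Hspd1 at 223 and 229 against 189 and 204 (log2 fold 0.12, SE 0.386, and -0.19 without KO2 and -0.04 without WT1).

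Counted together, 4 of the 10 members had both KO NCM values above both WT values (Hspa1a, Hspa1b, Dnajb1 and Hsp90aa1) and 1 had both below (Hspe1), while 26.9% and 18.3% of all genes tested did so. In CM wells 5 members were above (Hspa1b, Hspa8, Hsp90ab1, Hspb1 and Hspd1) and 1 below (Hspe1), against 15.8% and 12.7% of all genes. Of 66 other chaperone, HSF and cochaperone genes measured, 0 passed the threshold in either fraction. In NCM wells 24 of them had both KO values above and 14 both below, with a median log2 fold of -0.00 (all genes -0.01), and in CM wells 15 were above and 5 below, with a median of 0.07 (all genes 0.01). Hsf1, the factor that switches on the inducible members, had log2 folds of 0.35 (SE 0.745) in CM and 1.57 (SE 0.735) in NCM wells. Bag3, an HSF1 target that steers clients to autophagy, had -0.32 (SE 0.437) in CM and 0.71 (SE 0.329) in NCM wells, and neither gene passed the threshold. Immediate early genes such as Fos and Jun, which dissociation also switches on, did not pass it either (0 of 24 in each fraction). No gene at all passed there in edgeR. Their median log2 folds were -0.01 in CM and -0.14 in NCM wells. Both KO values lay above both WT values for 12 of 23 in endothelial-like (26.9% of all genes) and 10 of 24 in fibroblast-like NCM wells (24.1%). The number was 7 of 24 in macrophage-like NCM (20.3%) and 1 of 24 in cardiomyocyte-like CM wells (19.2%). In these classes 1, 1, 3 and 2 lay below (14.4, 18.8, 20.1 and 17.1% of all genes), with medians of 0.40, 0.19, 0.01 and 0.21.

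**Figure D3:**
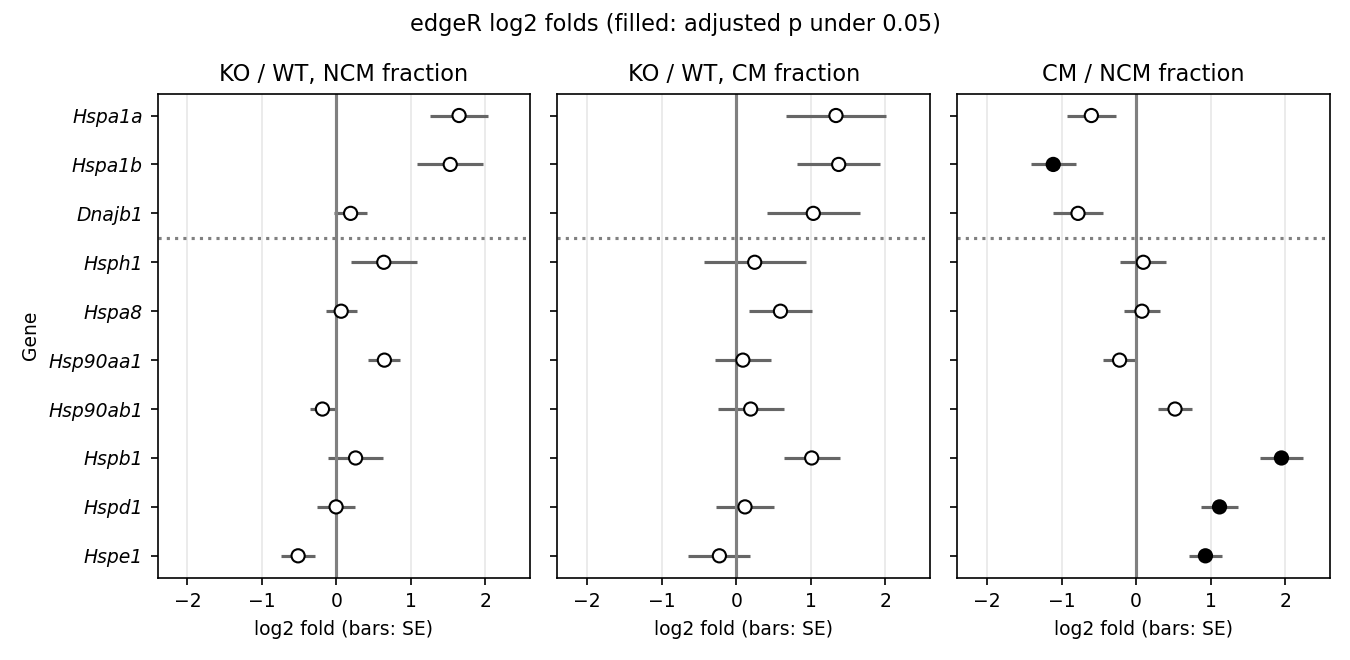
Fitted log2 folds with standard errors (bars) for the 10 genes in KO over WT in each fraction and in CM over NCM with animal as a block. Filled points have an edgeR adjusted p under 0.05. No KO over WT point is filled, and in CM over NCM Hspb1, Hspd1 and Hspe1 lie above 0 and Hspa1b lies below.

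Named classes were compared where every animal had at least 20 wells. Fibroblast-like NCM wells (101 and 118 in KO1 and KO2, 154 and 125 in WT1 and WT2) had the largest log2 folds of the Hspa1 genes among these classes. Hspa1a stood at 359 and 180 CPM in KO1 and KO2 against 38.1 and 25.7 in WT1 and WT2. Hspa1b stood at 577 and 283 in KO1 and KO2 against 51.0 and 57.2 in WT1 and WT2. Every KO value lay above every WT value, and the log2 folds were 2.91 for Hspa1a (SE 0.428) and 2.81 for Hspa1b (SE 0.386). In edgeR 0 of 14185 genes (0%) passed here, 1404 were below 0.05 unadjusted, and both copies had an adjusted p of 0.448. In DESeq2 315 genes were higher and 180 lower, with an adjusted p of 8.7e-07 for Hspa1a and 6.8e-07 for Hspa1b, and edgeR with no filter on low counts gave 3.6e-08 and 1.1e-09. Without KO1 the folds were 2.39 and 2.27. Of the other members, Dnajb1 (log2 fold 0.58) and Hsp90aa1 (0.57) also lay above WT without overlap, and Hsp90ab1 (-0.46) and Hspe1 (-0.58) below. Hspd1 had the largest fold among these others (-0.69, SE 0.359), with overlap, and Hsph1, Hspa8 and Hspb1 had -0.00, 0.09 and -0.10. Members without overlap numbered 4 above and 2 below, against 24.1% and 18.8% of genes tested. Mitochondrial genes took 42.3 and 27.1% of UMIs in these KO wells against 4.90 and 6.35% in WT, and the 12 cardiomyocyte markers 0.122 and 0.364% in KO against 0.0566 and 0.172% in WT, and their part in the result was not tested.

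Macrophage-like NCM wells (47 and 47 in KO1 and KO2, 105 and 92 in WT1 and WT2) had Hspa1a at 576 and 247 CPM in KO1 and KO2 against 76.0 and 121 in WT1 and WT2, and Hspa1b at 630 and 331 against 144 and 197. The genotypes did not overlap, with log2 folds of 1.84 (SE 0.488) and 1.29 (SE 0.403). Hspb1 was low in this class, at 128 and 67.9 in KO1 and KO2 against 41.8 and 10.8 in WT1 and WT2 (log2 fold 1.73, SE 0.746), while Dnajb1 had 0.24 (-0.17 without WT1) and Hspe1 -0.47. In edgeR 0 of 12234 genes (0%) passed and 1127 were below 0.05 unadjusted, and in DESeq2 330 were higher and 159 lower, with no member among them. Members without overlap were 3 above and 1 below, against 20.3% and 20.1% of genes. In endothelial-like NCM wells (233 and 127 in KO1 and KO2, 57 and 146 in WT1 and WT2) Hspa1a stood at 593 and 142 in KO1 and KO2 against 90.7 and 281 in WT1 and WT2, so that WT2 exceeded KO2. Hspa1b stood at 845 and 435 in KO1 and KO2 against 119 and 296, without overlap. The log2 folds were 0.75 for Hspa1a (SE 0.724, and -0.52 without KO1), 1.41 for Hspa1b (SE 0.503), -0.09 for Dnajb1 (0.33 without KO2) and -0.49 for Hspe1. In edgeR 0 of 12239 genes (0%) passed and 1099 were below 0.05 unadjusted, and in DESeq2 171 were higher and 138 lower, with no member among them. Members without overlap were 3 above and 2 below, against 26.9% and 14.4% of genes. Whether the genotype difference is unequal between these classes was not tested.

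Cardiomyocyte-like CM wells (137 and 274 in KO1 and KO2, 125 and 200 in WT1 and WT2) had low inducible levels. Hspa1a and Hspa1b together stood at 263 and 75.2 CPM in KO1 and KO2 against 73.6 and 34.8 in WT1 and WT2, and Hspb1 stood at 1307 and 530 against 410 and 286. KO1 was the highest animal for both, and KO2 stood level with WT1 for the Hspa1 pair. The log2 folds were 1.39 for Hspa1a (SE 0.730), 1.50 for Hspa1b (SE 0.570), 1.28 for Dnajb1 (SE 0.830, and -0.54 without KO1), 1.22 for Hspb1 (SE 0.449) and 0.54 for Hspa8 (SE 0.361). In edgeR 0 of 12611 genes (0%) passed and 589 were below 0.05 unadjusted, and in DESeq2 61 were higher and 28 lower, with no member among them. Left with KO1 as its lone KO animal, the fit called 711 genes, among them Hspa1b (2.01), Dnajb1 (2.05) and Hspb1 (1.61). Members without overlap were 4 above and 0 below, against 19.2% and 17.1% of genes. The class joins clusters 10 and 12, and 132 of the 137 KO1 wells lay in cluster 12, against 228 of 274 in KO2, 86 of 125 in WT1 and 104 of 200 in WT2.

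**Figure D4:**
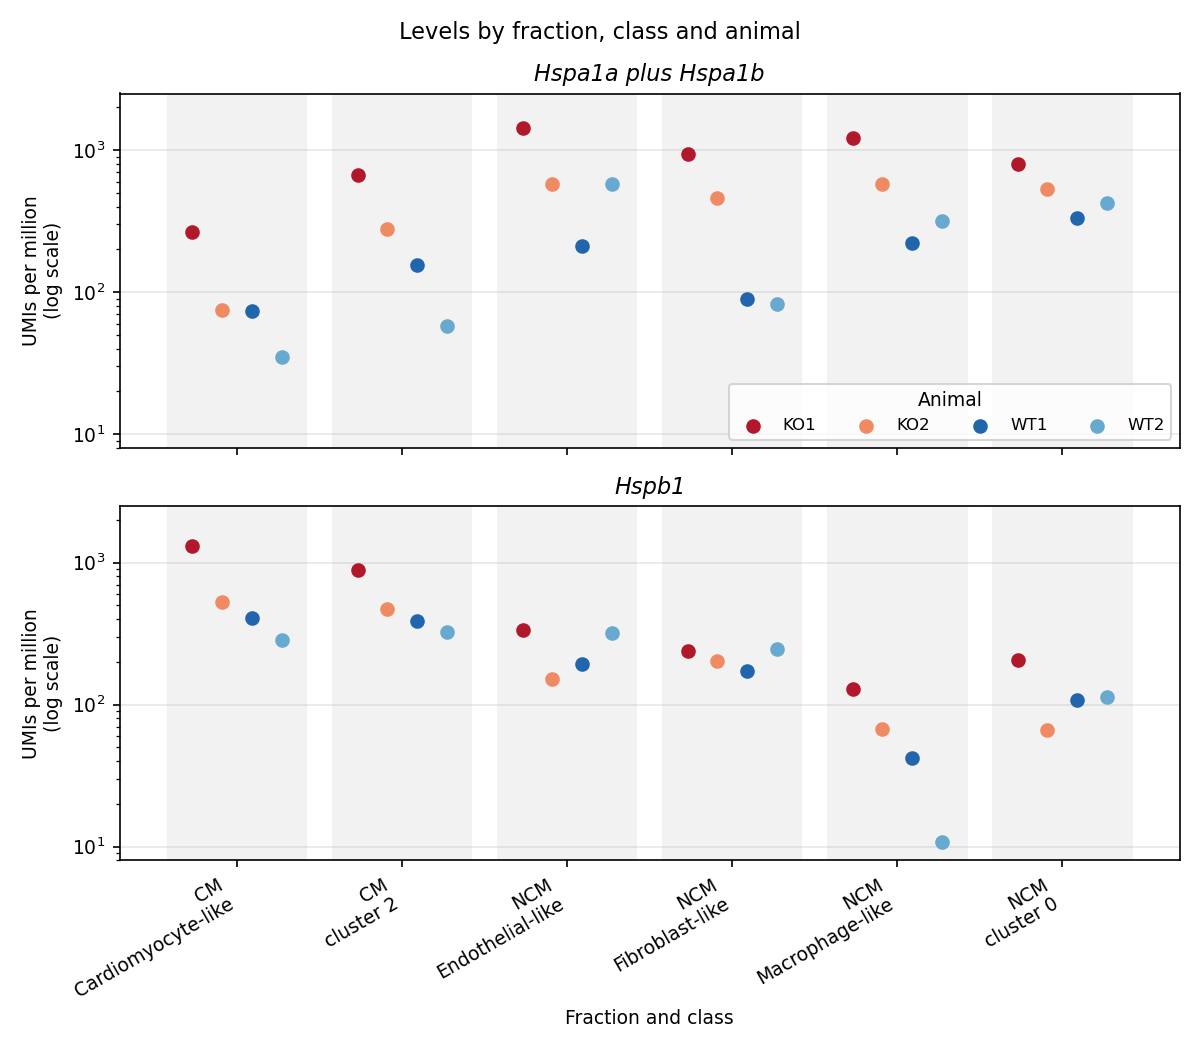
CPM (log axis) of Hspa1a plus Hspa1b (upper panel) and of Hspb1 (lower panel) in the classes and clusters with at least 20 wells in every animal. Each point is 1 animal, KO left of WT. Fibroblast-like NCM wells show the pair near 936 and 463 in KO and 89.1 and 82.9 in WT, and Hspb1 is lowest in macrophage-like NCM wells.

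Levels across classes are descriptions of clustered wells, with no test. Mean levels of the Hspa1 pair in NCM classes with all 4 animals were 700 CPM in endothelial-like (range 210 to 1437), 581 in macrophage-like (220 to 1207), 520.5 in unnamed cluster 0 (332 to 794) and 393 in fibroblast-like wells (82.9 to 936). These ranges overlap in every neighbouring pair, so no order beyond the spread can be read. Hspb1 averaged 251 in endothelial-like (151 to 336) and 215 in fibroblast-like wells (173 to 247), above 62.1 in macrophage-like wells (10.8 to 128). Hspe1 averaged 352 in fibroblast-like wells (278 to 479), above 189 in endothelial-like (166 to 228) and 186 in macrophage-like wells (148 to 226). Hsp90ab1 averaged 2090, 1921 and 1600 in endothelial-like, fibroblast-like and macrophage-like wells, with overlapping ranges of 1765 to 2490, 1713 to 2326 and 1425 to 1846. In the CM fraction the pair averaged 112 in cardiomyocyte-like wells (34.8 to 263) and 290 in unnamed cluster 2 (57.7 to 670), whose leading genes mix endothelial and muscle genes.

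The share of wells with a UMI shows how widely a gene was detected. Each well was thinned to 5000 UMIs, which left out 0 to 18 shallower wells per animal and fraction. A UMI of Hspa1a or Hspa1b was then present in 66.4% of KO1 and 55.3% of KO2 NCM wells (exact 95% intervals 62.8 to 69.9 and 51.6 to 58.9), against 33.1% of WT1 and 34.0% of WT2 NCM wells (29.6 to 36.7 and 30.5 to 37.7). In the CM fraction the shares were 38.1 and 25.5% in KO1 and KO2 (32.1 to 44.3 and 21.2 to 30.1). In WT1 and WT2 CM wells they were 22.4 and 14.7% (16.9 to 28.6 and 10.7 to 19.4), and the intervals of KO2 and WT1 overlapped. Unthinned, the NCM shares were 86.4 and 86.7% in KO against 69.8 and 69.6% in WT. Fibroblast-like NCM wells had thinned shares of 78.2 and 49.2% in KO against 29.9 and 24.8% in WT. In CM wells a UMI of Hspb1 was present in 76.2 and 75.3% of thinned wells of KO1 and KO2, against 51.0 and 53.8% in WT1 and WT2, so the genotypes lay apart. Hspe1 was found in fewer thinned CM wells of KO1 (39.6%) than of KO2 (68.3%), WT1 (69.0%) or WT2 (70.0%). Hsp90ab1 was found in 92.5 and 91.7% of thinned KO NCM wells against 87.4 and 79.1% in WT, and Hspa8 in 90.0 and 85.5% against 85.3 and 82.1%. No class here is known to lack the Hspa1 genes, so no background share could be set, and 20 negative-control wells together held 13 UMIs of the 10 members among 5910 UMIs. The intervals cover counting error only. Without thinning, the richest 10% of wells held 58.2 and 72.2% of the Hspa1 UMIs in KO1 and KO2 NCM wells and 71.5 and 81.3% in WT1 and WT2. For the abundant Hsp90ab1 it was 43.6 and 51.1% in KO and 58.0 and 63.3% in WT. Rarer constitutive members were more concentrated than the pair, with Hspd1 at 78.6 and 75.0% in KO and 81.7 and 91.2% in WT. Hspb1 stood at 73.5 and 76.8% in KO and 88.8 and 86.6% in WT. The concentration is thus not particular to the pair, and the part of low counts and depth in it was not tested.

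**Figure D5:**
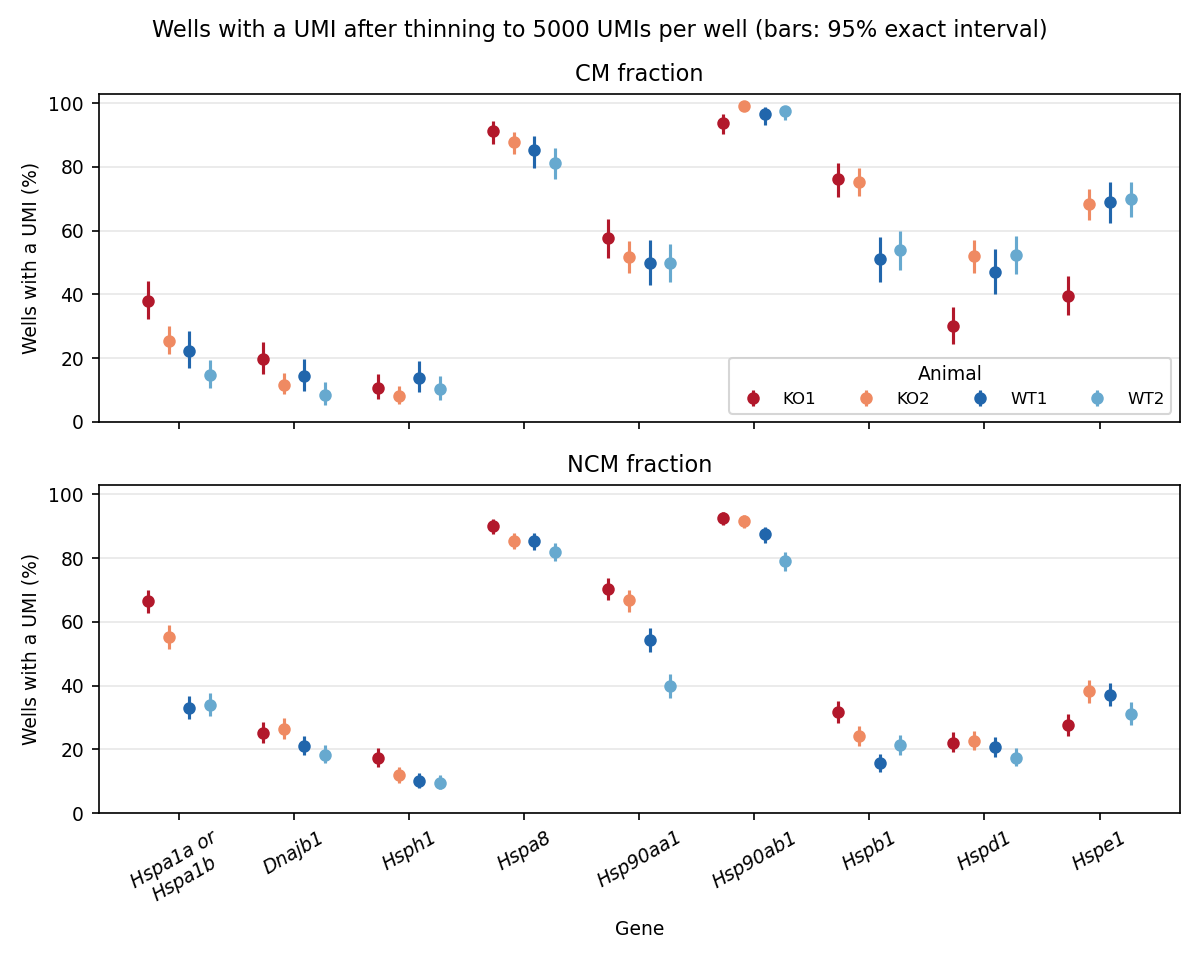
Share of wells (%) with at least 1 UMI of each gene after thinning to 5000 UMIs, by fraction and animal, KO left of WT, with exact 95% intervals (bars). In the NCM panel the KO points of the Hspa1 pair lie at 66.4 and 55.3% and the WT points at 33.1 and 34.0%, and Hsp90ab1 and Hspa8 lie above 79% in every animal.

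Between the fractions Hspb1, Hspd1 and Hspe1 were higher in CM wells, and of the 3 inducible genes Hspa1b was lower. Each animal was compared with itself, but its CM and NCM wells always lay on different chips, so fraction and chip cannot be told apart. The animals of a genotype also shared their chips, so the 4 comparisons are not fully separate. Hspb1 stood at 775, 490, 312 and 259 CPM in the CM sums of KO1, KO2, WT1 and WT2, against 255, 124, 112 and 166 in their NCM sums. It was higher in CM wells in 4 of 4 animals, with a log2 fold, CM over NCM, of 1.95 (SE 0.292, edgeR adjusted p = 0.00254). Hspd1 (1.12, SE 0.253, adjusted p = 0.0188) and Hspe1 (0.93, SE 0.226, adjusted p = 0.0257) were likewise higher in 4 of 4. Hspa1b stood at 233, 69.4, 68.3 and 33.4 in the CM sums of KO1, KO2, WT1 and WT2, against 654, 287, 101 and 184 in their NCM sums, and was lower in 4 of 4 (log2 fold -1.11, SE 0.301, adjusted p = 0.0392). In all, 3 of 10 members were called higher and 1 lower, where 8.33% and 5.92% of 17509 genes were. Without the test, 3 members were above and 3 below (Hspa1b, Dnajb1 and Hsp90aa1) in all 4 animals, against 10.1% and 37.9% of genes. The remaining members did not pass the threshold, at -0.78 for Dnajb1 (SE 0.337), -0.60 for Hspa1a (SE 0.331), 0.52 for Hsp90ab1 (SE 0.231), -0.22 for Hsp90aa1 (SE 0.229), 0.10 for Hsph1 (SE 0.308) and 0.08 for Hspa8 (SE 0.237). The median log2 fold of all genes was -0.28 with TMM scaling and -0.81 with plain totals, under which Hspd1 (0.59) and Hspe1 (0.40) lost their calls, and Hsph1 (-0.43), Hspa8 (-0.45) and Hsp90ab1 (-0.0083) turned negative. In wells under 30% mitochondrial UMIs the calls on Hspa1b, Hspd1 and Hspe1 were lost (adjusted p = 0.122, 0.101 and 0.289). The Hspa1b call was lost without KO1, KO2 or WT2 (adjusted p = 0.0944, 0.138 and 0.167) and without the animal block (log2 fold -1.12, adjusted p = 0.192), and those of Hspd1 and Hspe1 without KO2, WT1 or WT2 (0.0736 to 0.117). That of Hspb1 held in each alternative run.

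The small heat shock genes of muscle went with Hspb1. All 6 of 6 were higher in CM wells, with log2 folds of 4.79 for Hspb6, 4.66 for Hspb7, 4.40 for Cryab, 4.39 for Hspb3, 3.49 for Hspb2 and 3.41 for Hspb8 (median 4.40, all genes -0.28). All 8 of 8 other mitochondrial chaperone and protease genes were higher as well (median 1.66), among them Dnaja3, the mitochondrial J-domain protein, at 1.84. Of the remaining lists 1 of 6 HSF and feedback genes (Bag3, 1.36), 2 of 18 cytosolic cochaperones (Fkbp4, 1.45, and Dnaja2, 1.11) and 1 of 6 other HSP70 and HSP110 genes (Hspa4l, 1.55) were higher, these 4 being named after their values were seen. None of 14 chaperones of the endoplasmic reticulum and none of 8 CCT chaperonin subunits passed the threshold. Of 24 immediate early genes, 14 were lower in CM wells, with Jund at -2.04 (median of the list -1.12). These counts are of genes past the threshold, where 8.33% of all 17509 genes were called higher and 5.92% lower.

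A sum over a fraction mixes the level per cell with the share of each cell type, so the fractions were also compared within a class. No class had 20 wells in every animal on both chips, and 15 were accepted after seeing this. The fibroblast-like class joins clusters 3 and 11, and the fractions drew on them unequally. CM wells of KO1, KO2, WT1 and WT2 numbered 15, 15, 17 and 24 in cluster 11 and 3, 0, 1 and 1 in cluster 3, against 29, 57, 77 and 30 NCM wells in cluster 11 and 72, 61, 77 and 95 in cluster 3. In fibroblast-like wells the CM over NCM log2 folds were 0.48 for Hspb1 (SE 0.303), 0.80 for Hspd1 (SE 0.339), 0.52 for Hspe1 (SE 0.255) and 0.02 for Hspa1b (SE 0.412, and -0.38 without WT1), and 0 of the 10 members passed the threshold, where 2% of 13263 genes were called higher and 0.513% lower. In macrophage-like wells Hspb1 stood at 186, 289, 179 and 125 CPM in the CM wells of KO1, KO2, WT1 and WT2, against 128, 67.9, 41.8 and 10.8 in their NCM wells. The animals kept 1 direction, with a log2 fold of 2.23 (SE 0.501, edgeR adjusted p = 0.0629, and past the threshold under DESeq2 and 5 other alternatives, but 0.172, 0.197 and 0.211 without KO2, WT1 or WT2), while Hspa1b had -1.21 (SE 0.402), Hspd1 0.71 (SE 0.347) and Hspe1 0.74 (SE 0.298), with 0 of 10 called where 1.72% of 11939 genes were called higher and 0.226% lower. Cardiomyocyte transcripts also differed there: Cryab, a small heat shock gene of muscle, stood at 1262, 2600, 1449 and 1543 in the CM macrophage-like wells of KO1, KO2, WT1 and WT2 against 324, 48.6, 55.2 and 187 in their NCM wells. Muscle small heat shock genes were called higher on the CM chips in 5 of 6 cases in fibroblast-like and 4 of 6 in macrophage-like wells, and their part in the Hspb1 value was not tested.

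Across the wells of 1 animal, fraction and class, the Hspa1 copies went together. Spearman's correlation of their levels had a median of 0.35 over 40 such sets of wells (range -0.00 to 0.60) and was above 0 in 39, and it was 0.32 after thinning. Wells of a set share an animal and a chip, and reads of the copies may be exchanged, as said above. The pair went less closely with Hsp90aa1 (median 0.13), with summed immediate early genes (0.13), with Dnajb1 (0.09), with Hsph1 (0.09) and with Hspa8 (0.09). With the mitochondrial share the median was -0.00 (range -0.59 to 0.49) and with the depth of a well -0.02 (range -0.37 to 0.40), so single sets went either way. In these sparse counts the low values are no finding. Across the 40 sums, which share animals, chips and depth, the gene whose level was most like that of the summed inducible members was Vaultrc5 (Pearson r = 0.84 on log2 levels, of 3068 genes averaging at least 50 CPM), followed by Actg1 (0.81), H2-K1 (0.80), Il4ra (0.79), Psmb8 (0.77), Gm12715 (0.77), Gm11478 (0.77) and Arpc1b (0.77). Of the constitutive members Hspa8 came closest (0.78), followed by Hsp90aa1 (0.63) and Hsph1 (0.47), while Hspb1 (-0.00), Hspd1 (-0.14) and Hspe1 (-0.31) were not alike. The summed constitutive members were most like Eif3b (0.70), Zfp91 (0.68), Ik (0.67), Ywhae (0.66), Nmt1 (0.66), Kif1b (0.65), Cops5 (0.65) and Clic4 (0.64).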

How the data were processed

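Single-well RNA counts of 4 chips were analysed. The authors deposited UMI counts per gene and well, with a report that gives each well's animal and fraction, and the counts are raw per the file headers and values. STAR 2.5.2b, featureCounts, Subread 1.4.6-p1 and mm10 are named in the submitters' processing notes; for the strand setting and for reads that match several genes, nothing is given in the sources used here. All members and lists were chosen with earlier results of these data known.

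Wells with at least 10000 UMIs and 300 genes were kept, and UMIs were summed per animal and fraction or class, leaving out 33 mitochondrial and 9 haemoglobin genes. Levels are CPM (counts-per-million) of the rest. The sums were tested with edgeR 4.0.16 (quasi-likelihood test, TMM, filterByExpr, Benjamini-Hochberg threshold 0.05), with DESeq2 1.42.0 as an alternative, in R 4.3.3. CM was set against NCM with the animal as a block, because the report names the same animals on both chips; correlations of their deviations were 0.0371 in KO and 0.0119 in WT. With 2 animals against 2 no exact permutation test can give a p below 0.333, so none was used. No label says that the animals are littermates.

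Wells were clustered with scanpy 1.11.5 (2000 variable genes, 30 components, 15 neighbours, Leiden resolution 1) without 77 heat shock and chaperone genes, and named from marker lists. Immediate early genes were not left out of the clustering. A name needed 3 markers of 1 class among the 30 leading genes, against other wells of the same chips or, failing that, against all other wells. Cluster 12, with 1 cardiomyocyte marker in the first comparison, was named by the other. A rule chosen after the data were seen also asked for class markers at 25% or more of their highest cluster level. Under it cluster 0, with 3 cardiomyocyte markers, stayed unnamed. Scrublet calls (0 to 20 per chip) were kept, and left out as an alternative. Shares of wells were taken after thinning each well to 5000 UMIs. Named list genes are the 8 largest among those past the threshold. On simulated counts for the KO and WT NCM sums (17216 genes), the edgeR test recovered 100% of 4-fold changes at a dispersion of 0.05 and 0% at the dispersion of 0.215 estimated here.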

Additional observations from a re-analysis of the deposited data

How the results depend on the processing

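Among member folds recomputed under alternatives, 734 kept their direction and side of the threshold, 46 turned round, 23 gained and 17 lost a call. Genes called between KO and WT depended most on the low-count filter and on DESeq2. The latter was run without edgeR's filter and with its own default filtering, and so changed both the tool and the filter. In the NCM fraction 0 became 226 with no filter on low counts, 734 with DESeq2 and 17 after thinning, and in the CM fraction 47 with no filter and 66 with DESeq2. With no filter, DESeq2 and thinning the counts were 171, 309 and 5 in endothelial-like wells, 246, 495 and 9 in fibroblast-like wells, and 249, 489 and 6 in macrophage-like wells. Cardiomyocyte-like wells gave 94 and 89 with no filter and DESeq2, and the difference between fractions 43 and 115. Library totals moved the median of all genes to 0.16 (NCM) and 0.13 (CM) for KO over WT.

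For CM over NCM, 2496 genes were called, against 3963 with library totals (1068 higher, 2895 lower), 4773 with DESeq2 (2499 and 2274), 750 under 30% mitochondrial UMIs (583 and 167), 3687 after thinning (1851 and 1836) and 3191 with no filter (1634 and 1557). Without the animal as a replicate block, 2661 were called, and Hspa1b lost its call (-1.12, adjusted p = 0.192). Other members kept their calls without the block. In fibroblast-like wells DESeq2 called 1285 and thinning 508, and in macrophage-like wells no filter gave 435, DESeq2 1239 and thinning 402.

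Under 30% mitochondrial UMIs the NCM folds of Dnajb1 (-0.32), Hsp90ab1 (0.035), Hspb1 (-0.48), Hspd1 (0.39) and Hspe1 (0.40) turned round, as did the difference between fractions for Hspa1a (0.33) and Hspa1b (0.17). Thinning turned Hsp90ab1 (0.054) and Hspd1 (0.15) in NCM, Hspd1 (-0.13) in CM, and the Hspa1a difference (0.36). Hspa8 was -0.019 in NCM with no filter, and Hspd1 0.015 with DESeq2's size factors and 0.17 with totals. Totals also turned Dnajb1 in endothelial-like wells (0.15) and, for CM over NCM, Hsph1 (-0.43), Hspa8 (-0.45) and Hsp90ab1 (-0.0083). Hspa1b in fibroblast-like wells, CM over NCM, was -0.28 with totals, -0.0042 with all genes kept, -0.13 without doublet calls, -0.20 after thinning and -0.45 with no replicate block. The cause was not tested for any of these.

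With each animal left out in turn, genes called ranged from 0 to 1 in NCM, 1252 to 2654 for CM over NCM, 0 to 5 for the difference, 0 to 9 in endothelial-like and 3 to 711 in cardiomyocyte-like wells, and for CM over NCM from 131 to 373 in fibroblast-like and 38 to 334 in macrophage-like wells. A lone animal is then assumed to vary like the other group. NCM folds ranged from -0.075 to 1.12 for Hsph1, -0.10 to 0.22 for Hspa8, -0.24 to 0.64 for Hspb1 and -0.22 to 0.20 for Hspd1. CM folds ranged from -1.02 to 0.91 for Hsph1, -0.13 to 0.29 for Hsp90aa1, -0.19 to 0.38 for Hspd1 and -0.65 to 0.12 for Hspe1. CM over NCM ranged from -0.20 to 0.30 for Hsph1, -0.0047 to 0.23 for Hspa8, -1.41 to -0.85 for Hspa1b, 0.92 to 1.31 for Hspd1 and 0.80 to 1.01 for Hspe1. The difference ranged from -1.23 to 0.74 for Hspa1a and -1.004 to 0.69 for Hspa1b. In classes the range was -0.52 to 1.71 (Hspa1a) and -0.75 to 0.33 (Dnajb1) in endothelial-like, -0.17 to 0.75 (Dnajb1) in macrophage-like, -0.54 to 2.05 (Dnajb1) in cardiomyocyte-like, and -0.38 to 0.50 (Hspa1b, CM over NCM) in fibroblast-like wells.

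The inducible sum in WT NCM wells was 508 as a mean over wells, and the WT NCM ratio 13.6 after thinning. Without thinning, 86.6% of KO and 69.7% of WT NCM wells and 60.8% of KO and 45.1% of WT CM wells held an Hspa1 UMI. Wells under 30% mitochondrial UMIs were too few for classes, and fibroblast-like fractions were not recompared in clusters made with heat shock genes.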

Other observations

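Unnamed cluster 15, found in 20 or more wells only in KO1 (54) and KO2 (115), had the Hspa1 pair at 1127 and 380 CPM, against NCM sums of 1117 and 505 in the same animals. Neutrophil-like NCM wells had the pair at 612 in KO1 (22 wells), against 93.5 and 43.6 in WT1 (65 wells) and WT2 (35 wells), with too few wells in KO2 for a comparison.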
